A study of Drosophila melanogaster with 2 samples.

Results

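The peaks described here are strong binding regions of the GFP-tagged CG4282 protein at promoters that read in only 1 direction. ChIP-seq was performed with an antibody against GFP on whole Drosophila melanogaster embryos of both sexes, pooled and aged 0 to 24 h, from a transgenic line in which GFP is fused to the carboxy terminus of CG4282. Both libraries belonged to 1 group and were numbered biological replicates 3 and 4 in the labels. No untagged line, second condition or control library was among the samples. Whole embryos mix many cell types and ages, so binding in more cells and stronger binding per cell cannot be told apart.

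Members were taken from the deposited optimal list, which holds the peaks the submitters kept by the irreproducible discovery rate. A peak was a member when its summit lay within 500 bp of an annotated transcription start and every start within that distance was on the same strand. This rule found 813 of the 1985 optimal peaks (41.0%, Wilson 95% interval 38.8 to 43.1%) and 62.8% of the 1294 optimal peaks near any start. Another 481 optimal peaks lay near starts on both strands and 691 lay near none. The members were associated with 805 genes. Signal, the submitters' own enrichment value for a peak, had a median of 93.4 over the members and ran from 66.9 to 1065. Read depth is unknown, because the files give peaks and not read counts.

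CG4282 was placed among zinc finger genes with a ZAD domain, a protein interaction domain found in many insect zinc finger proteins. In the compact fly genome neighbouring genes often start back to back, so that 1 region is upstream of both. At a start with no opposite start nearby, the DNA on its upstream side holds the proximal promoter and the downstream side is transcribed, which allows the side of a summit to be read against a single direction of transcription. Several short sequence elements recur at fly promoters. They include the DNA replication-related element (DRE), bound by DREF, and the computationally defined Motif 7.

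Sequences under some of the strongest summits are shown first, because the best-ranked member with any of the 5 elements counted below ranked 18 among the members. The 4 shown rank 1, 2, 6 and 8. PNPase at rank 4 was passed over because its summit is downstream of the start, and px, CG1888 and mRpL41 at ranks 3, 5 and 7 because sequence from their chromosome arm is not shown here. Each sequence is 61 bp centred on the summit, read 5′ to 3′ on the strand of the gene from the dm6 genome, and none holds a base in capitals, since none has a match to DRE, its extended form, Motif 7 or the words introduced with the next set. They come from the promoters of CG14100, of Ugalt, a UDP-galactose transporter, of Rtnl1, which encodes an endoplasmic reticulum reticulon, and of ph-p, a Polycomb group gene. The GC content of these windows was 27.9%, 26.2%, 26.2% and 32.8%, in that order.
CG14100 (chr3L:19590583-19590643, minus strand): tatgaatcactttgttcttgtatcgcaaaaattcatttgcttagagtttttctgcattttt
Ugalt (chrX:2703857-2703917, minus strand): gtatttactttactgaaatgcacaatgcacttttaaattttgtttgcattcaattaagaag
Rtnl1 (chr2L:4997618-4997678, minus strand): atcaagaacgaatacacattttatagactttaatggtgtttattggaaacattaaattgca
ph-p (chrX:2137302-2137362, minus strand): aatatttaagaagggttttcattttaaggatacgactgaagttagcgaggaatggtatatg

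The second set shows members with the elements that recurred at summits. Capitals mark the match. The first 4 carry the 7-base word CACTGTG, which had been found in these data earlier. Kul encodes a metalloprotease of the ADAM family and fkh the forkhead transcription factor of gut and salivary gland.
Kul (chr3R:29725710-29725770, plus strand): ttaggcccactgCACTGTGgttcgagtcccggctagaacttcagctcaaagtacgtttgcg
RluA-1 (chr2L:10474387-10474447, minus strand): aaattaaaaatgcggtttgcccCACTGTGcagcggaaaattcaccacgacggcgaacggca
prage (chrX:1830798-1830858, plus strand): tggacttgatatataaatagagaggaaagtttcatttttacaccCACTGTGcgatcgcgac
fkh (chr3R:28585457-28585517, minus strand): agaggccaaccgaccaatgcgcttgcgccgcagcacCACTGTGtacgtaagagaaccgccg
The next 3 carry DRE (TATCGATA) or its extended form (ATCGATAG). They lie at eEF1gamma, a translation elongation factor subunit, at CG7006 and at Pgk, the glycolytic enzyme phosphoglycerate kinase.
eEF1gamma (chr3R:29220100-29220160, plus strand): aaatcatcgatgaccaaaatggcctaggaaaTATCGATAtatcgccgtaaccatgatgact
CG7006 (chr3R:24850562-24850622, plus strand): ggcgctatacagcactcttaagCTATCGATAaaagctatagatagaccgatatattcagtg
Pgk (chr2L:2750417-2750477, minus strand): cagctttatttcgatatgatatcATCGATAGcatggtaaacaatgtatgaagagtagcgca
RpL23A, a ribosomal protein gene, and Phs, a ZAD zinc finger gene, carry the word CAACACTG on the strand opposite to the gene, so that on the printed strand of the gene it reads CAGTGTTG.
RpL23A (chr3L:1668732-1668792, minus strand): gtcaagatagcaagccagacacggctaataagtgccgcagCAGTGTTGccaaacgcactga
Phs (chr3L:15619777-15619837, plus strand): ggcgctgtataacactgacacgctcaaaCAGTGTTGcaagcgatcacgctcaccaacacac
CG31855 and RpS5a, a ribosomal protein gene, carry Motif 7.
CG31855 (chr2L:13369141-13369201, plus strand): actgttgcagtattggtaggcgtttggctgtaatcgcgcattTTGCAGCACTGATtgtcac
RpS5a (chrX:17148315-17148375, minus strand): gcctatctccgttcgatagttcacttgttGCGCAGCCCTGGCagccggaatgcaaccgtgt

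Summits lay mostly upstream of the start, although the rule treats both sides alike. Of the 813 members, 593 had the summit upstream (72.9%, 69.8 to 75.9%). Among the 6153 weaker one-strand promoter peaks, which are in the list of peaks and background made from both replicates pooled and overlap no optimal peak, 2525 did (41.0%). The difference was 31.9 percentage points (95% interval 28.5 to 35.1), with an odds ratio of 3.87 (3.29 to 4.56, two-sided Fisher's exact test, adjusted p = 1.76e-66 over 3 tests). Peaks are not replicates, so this p covers counting error over peaks only. The direction was the same when each replicate was used alone, where the strongest peaks and the rest had upstream shares of 78.2% and 45.4% in replicate 3 and of 64.1% and 39.1% in replicate 4.

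The median member summit lay 78 bp upstream of the start, with quartiles at 190 bp upstream and 6 bp downstream. The median weaker summit lay 48 bp downstream. The share of members was highest in the 100 bp just upstream of the start, which held 31.6% of them, followed by the next 100 bp upstream with 17.6%. All pooled one-strand promoter peaks numbered 7141, of which the 813 optimal ones made up 11.4%. Read against that background, 20.4% of the pooled summits in the 100 bp just upstream were optimal, as were 20.2% of those between 200 and 300 bp upstream. The optimal share was 10.6% in the 100 bp downstream of the start and 5.13% in the following 100 bp.

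**Figure D1:**
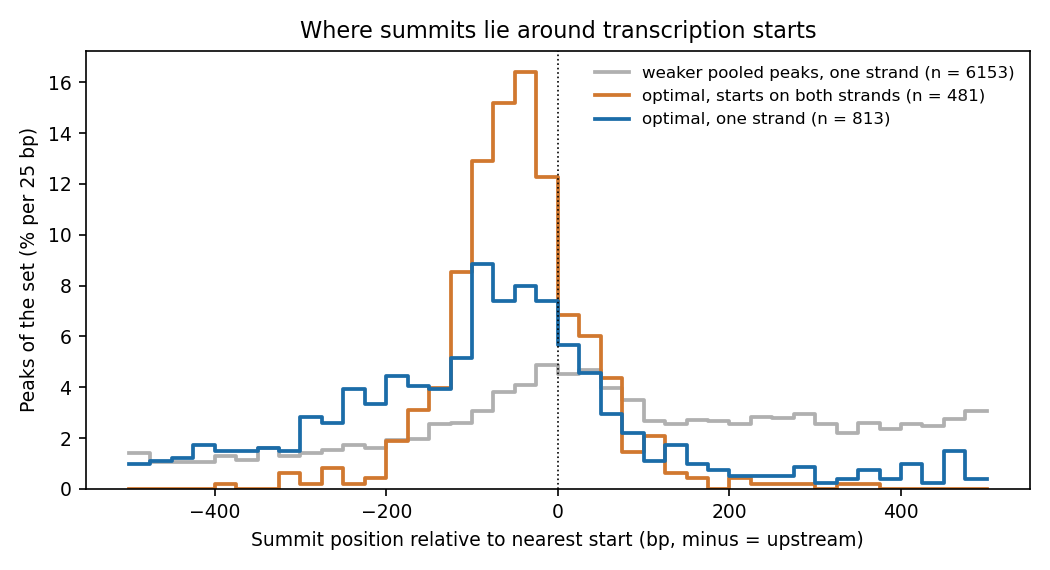
Position of peak summits relative to the nearest transcription start, in bp with negative values upstream, as the percentage of each set per 25 bp. Lines show the 813 optimal one-strand promoter peaks, the 6153 weaker one-strand promoter peaks and the 481 optimal peaks with starts on both strands; the first set lies mainly upstream with a median of -78 bp, and the weaker set has a median of 48 bp.

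What the summit lay in followed its side. Of the members, 337 were intergenic (41.5%, against 20.1% of weaker peaks), and 336 of these were upstream. Another 237 lay in an intron (29.2%), of which 82.7% were upstream, and 231 in an exon outside coding sequence (28.4%), of which 26.0% were. Coding exons held 8 members (0.984%, 0.499 to 1.93%) and 1553 weaker peaks (25.2%).

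GC content moved with these shares. The median GC content within 50 bp of the summit was 42.6% over the members and 48.5% over the weaker peaks. Within the members it was 40.6% upstream and 45.5% downstream of or at the start. The upstream share was therefore also taken within 4 bands of GC content cut at the quartiles of the members, a split chosen after the data had been seen. With GC up to 34.7%, 84.1% of members (78.6 to 88.4%) and 67.0% of weaker peaks (63.3 to 70.6%) were upstream. With GC above 48.5%, the shares were 63.7% (56.8 to 70.0%) and 32.3% (30.7 to 34.0%). Members had the higher share in each of the 4 bands, with the middle pair at 77.4% against 48.5% and 64.6% against 41.0%.

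Leaving out members with an opposite start not far past the limit changed the upstream share little. Without an opposite start within 1000 bp, 495 of 670 members were upstream (73.9%, 70.4 to 77.1%). The share was 74.3% (70.8 to 77.5%) among the 645 members with 1 start in the window, 70.5% (62.5 to 77.5%) among 139 with 2 starts and 55.2% (37.5 to 71.6%) among 29 with 3 or more. The next gene upstream was read on the same strand for 414 members, of which 74.6% had an upstream summit, and on the other strand for 298, of which 71.8% had one. The remaining starts lay inside another gene, 62 inside one of the other strand and 39 inside one of the same strand, with upstream shares of 71.0% and 66.7%. By chromosome arm, from 139 to 192 members lay on each of the 5 large arms, and their upstream shares ran from 68.2% on 3R to 79.1% on X.

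Optimal peaks with starts on both strands were upstream of the nearest start in 369 of 481 cases (76.7%). The members' share was 3.78 percentage points lower, with an interval from 8.53 lower to 1.17 higher (two-sided Fisher's exact test, adjusted p = 0.147), so a difference was not detectable. The classes differ in part by construction, since a summit between back-to-back starts is upstream of either. By the same exact test, replicate 4 used alone gave -7.71 percentage points (adjusted p = 0.00531) and replicate 3 alone 0.49 (adjusted p = 0.837). In distance the classes differed more, with a median of 111 bp from the nearest start for members and 59 bp for peaks with starts on both strands. That distance was not tested, and an opposite start within the window leaves less room for a distant summit.

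The strongest members were the promoter of CG14100, with a signal of 1065 in the optimal list, 473 in replicate 3 and 595 in replicate 4, and that of Ugalt, with 822, 396 and 426. CG14100 ranked 1 in both replicates, and Ugalt ranked 2 in replicate 3 and 4 in replicate 4. Next came px, a gene of wing vein patterning, with 721, 303 and 420, and PNPase, a mitochondrial RNA-processing enzyme, with 672, 279 and 391. The summit of px lay 200 bp upstream of its start and that of PNPase 80 bp downstream. CG1888 followed with 603, 279 and 327, and Rtnl1 with 552, 245 and 308. All these values are on the submitters' signal scale, which is not matched between lists, so that only ranks are read across replicates.

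Summits of these peaks were placed alike in both libraries. At CG14100 the replicate summits lay 91 and 88 bp upstream of the start, and at Rtnl1 263 and 274 bp upstream. At ph-p, with an optimal signal of 505, they lay 472 and 480 bp upstream. A further member at ph-p lay 431 bp downstream of another start of the same gene.

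The 20 strongest members had signals of at least 353, and 16 of them had an upstream summit. They also included mRpL41 with lncRNA:CR44463 (523), the nonsense-mediated decay factor gene Smg5 (478), CG31145 (466), the transcription factor gene Sox14 (457), the glutathione transferase gene GstE13 (445) and larp, an RNA-binding protein gene (442). The others were gish, a casein kinase gene (433), lncRNA:CR44619 with 2 members (424 and 413), MFS10 (408), CG11151 (399), Acbp1, an acyl-CoA binding protein gene (376), and lncRNA:CR31840 (353). None ranked below 68 in replicate 3 or below 50 in replicate 4. They were ranked by the pooled signal, so strength in each replicate is partly built into that choice. The median distance between replicate summits was 12 bp in these 20, and the largest was 77 bp.

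Signal and position varied together across the members. In 4 groups of equal size and falling signal, the upstream share was 84.3%, 77.3%, 67.0% and 63.1%, and the median summit lay 126, 88, 52 and 35 bp upstream. The strongest group had signals of 132 or more and the weakest of 76.7 or less. Median GC content over the same groups was 37.6%, 40.6%, 43.6% and 46.5%. Its part in the order of the upstream shares was not tested beyond the GC bands given with the weaker peaks. All 43 members narrower than 400 bp, the width of every other member, were in the strongest group.

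**Figure D2:**
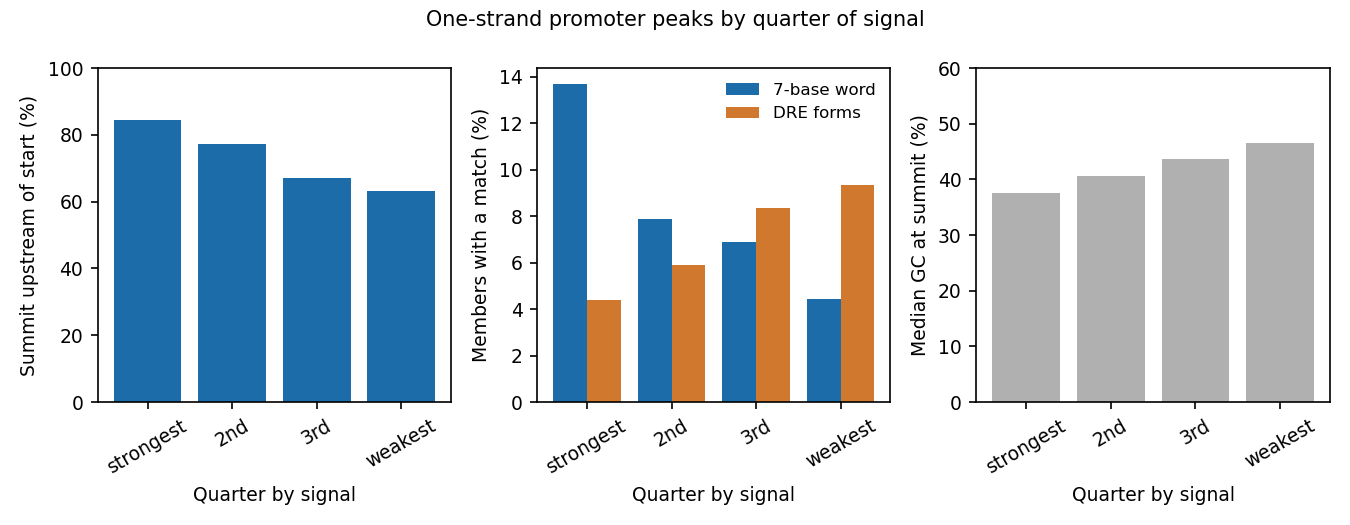
The 813 members in 4 groups of equal size by optimal signal, from strongest to weakest. Bars on the left give the percentage with the summit upstream of the start. Middle bars give the percentage with the 7-base word or a DRE form within 50 bp of the summit. Bars on the right give the median GC percentage within 50 bp of the summit. The upstream share falls from 84.3 to 63.1%. The word falls from 13.7 to 4.43% (28 to 9 members) and the DRE forms rise from 4.41 to 9.36% (9 to 19 members), orders that were not tested.

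Sequence elements were counted on both strands in a window of 50 bp to either side of the summit and in windows of the same size centred 500 bp to either side. The word CACTGTG occurred in 67 of 813 members (8.24%, 6.54 to 10.3%), as shown at Kul, RluA-1, prage and fkh. It occurred in 0.615% of the windows upstream and 1.48% of those downstream, and in 2.24% (1.90 to 2.64%) of weaker one-strand peaks. The words CACTGTGC and CACAGTGG, which contain it on one strand or the other, were in 6.03% and 5.41% of members. These words, CAACACTG and the extended DRE were found earlier in the optimal peaks of these same data, so their share at members is no independent evidence. At optimal peaks with starts on both strands the 7-base word was in 5.20%, and at optimal peaks near no start in 8.54%.

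The bases around CACTGTG were uneven. Of its 69 occurrences with 3 bases to either side inside the window, 63.8% had C just before the word and 73.9% had C just after it. The base 2 before the word was C in 44.9% of cases, and the second base after it was G in 40.6% and A in 30.4%. CACTGTGC holds the C just after the word, and CACAGTGG, on its other strand, the C just before it. Both were found earlier in these same data, so the shares of these C bases are no independent evidence. At weaker one-strand peaks, where 2.24% held CACTGTG, 1.14% held CACTGTGC and 1.09% CACAGTGG. CACTGTG was read on the strand of the gene in 40 members, on the other strand in 25 and on both in 2. In 52 of the 67 members the summit was upstream of the start (77.6%, against 72.9% of all members). Members with the word had a median signal of 117, and those without it 92.2.

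DRE occurred in 37 members (4.55%, 3.32 to 6.21%), as shown at eEF1gamma. It occurred in 0.738% of upstream windows, in 0 of 813 downstream windows, which allows a share of up to 0.369%, and in 1.79% of weaker one-strand peaks. The extended form overlaps DRE by its first 7 bases and was in 44 members (5.41%), and 57 members held either form. Optimal peaks with starts on both strands held DRE in 7.90%, and those near no start in 0.434%. CGATA, the core bound by the insulator protein BEAF-32, which is part of DRE, was in 22.0% of members, 15.9% of weaker peaks and 32.0% of peaks with starts on both strands. CG7006, shown above, holds DRE and the extended form as overlapping matches.

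Motif 7 was in 48 members (5.90%, 4.48 to 7.74%), in 2.28% of weaker peaks and in 7.69% (5.63 to 10.4%) of optimal peaks with starts on both strands. It was read on the strand of the gene in 31 members, on the other strand in 15 and on both in 2. CAACACTG, as at RpL23A and Phs, was in 31 members (3.81%, 2.70 to 5.36%) and in 0.926% of weaker peaks. Its share was 7.07% at peaks with starts on both strands. CAACACTG was read on the strand of the gene in 22 members, on the other strand in 8 and on both in 1. The examples at RpL23A and Phs thus do not show its more frequent direction. CACTGTG and a DRE form were found together in 3 members, and CACTGTG and CAACACTG in 4. In all, 176 members held DRE, its extended form, CACTGTG, CAACACTG or Motif 7 (21.6%, 19.0 to 24.6%), and the remaining members held none of these letters in the window.

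The elements were spread differently over signal. CACTGTG was in 13.7% of the strongest of the 4 groups, then in 7.88%, 6.90% and 4.43%. The DRE forms ran the other way, with 4.41%, 5.91%, 8.37% and 9.36%. Behind these shares were 28, 16, 14 and 9 members with CACTGTG and 9, 12, 17 and 19 with a DRE form. Neither order was tested. The share with any of the 5 elements ran only from 20.7% to 22.7%. Of the 20 strongest members, 1 held CACTGTG and 0 held a DRE form, and their median GC content was 32.7%.

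Elements that are common at fly promoters were not all more frequent at the summits. GAGAG, read by GAGA factor, was in 14.4% of members (12.1 to 17.0%), in 12.5% and 13.3% of the windows to either side and in 16.7% of weaker peaks. TAATTA, the core of many homeodomain sites, was in 3.57% of members, in 9.59% of the windows upstream and in 3.32% of those downstream. The 200 bp from 150 bp before to 50 bp after a start were searched as well. GAGAG was there in 40.1% (36.8 to 43.5%) at the members' nearest starts and in 31.3% at those of weaker peaks. It was in 24.4% of a set with a single start for each of 13937 genes. That start was the gene's farthest upstream with no opposite start within 500 bp, and not the one nearest to a peak. CACTGTG was in 10.5%, 3.22% and 2.73% of the same 3 sets, DRE in 8.24%, 6.63% and 4.30%, and Motif 7 in 10.1%, 7.10% and 4.36%. The TATA box was in 4.31% (3.11 to 5.93%), 5.05% (4.53 to 5.63%) and 7.77%, in the same order.

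The replicates ranked members on opposite sides of the start differently. A peak was counted as strong in a replicate when it overlapped 1 of the 1985 strongest peaks of that replicate's list by at least 1 bp. Of the 593 upstream members, 83.5% (80.3 to 86.2%) were strong in replicate 3 and 85.3% (82.3 to 87.9%) in replicate 4. Of the 220 members at or downstream of the start, 61.4% (54.8 to 67.6%) were strong in replicate 3 and 86.4% (81.2 to 90.3%) in replicate 4. Their median rank was 1518 in replicate 3 and 1040 in replicate 4, while upstream members had median ranks of 849 and 879. The difference between the sides was not tested, and the lower GC content of upstream members, given above, moved with it.

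**Figure D3:**
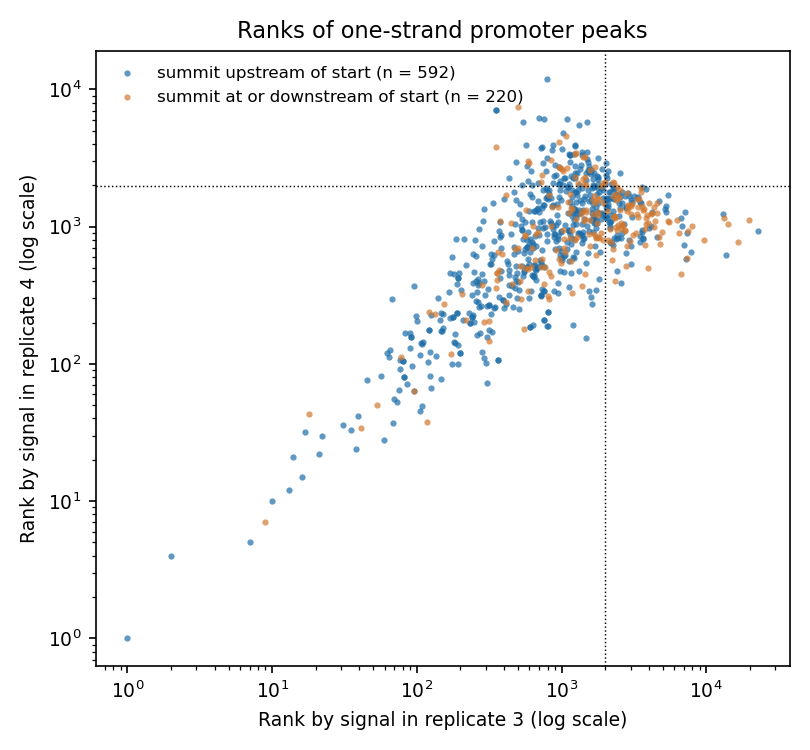
Rank of each member by signal in replicate 3 (horizontal) and replicate 4 (vertical), both on log scales, for the 812 members with a peak in both lists; colours separate summits upstream of the start (592) from those at or downstream of it (220). Dotted lines mark rank 1985. A larger share of the second group than of the first lies to the right of the vertical line, beyond that rank in replicate 3.

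The optimal list is made up of the 1985 pooled peaks with the highest signal, so strength in the replicates is partly built into membership, for optimal peaks of either class. Within that list, members were less often strong in both replicates than optimal peaks with starts on both strands. The counts were 522 of 813 (64.2%) and 351 of 481 (73.0%), a difference of -8.77 percentage points (95% interval -13.8 to -3.52, two-sided Fisher's exact test, adjusted p = 0.00171). The shares strong in replicate 3 were 77.5% and 86.3%, and those in replicate 4 were 85.6% and 85.9%. Only 9 members were strong in neither. Among optimal peaks at or above the median signal of their list the shares were 96.5% and 97.0%, near the ceiling that this choice sets, so a difference (-0.466 percentage points, not called) could hardly show there. Median signal was 93.4 for members and 98.1 for the other class, and median GC content 42.6% and 40.6%. Among members, 69.8% of those upstream and 49.1% of those at or downstream of the start were strong in both. In the 4 groups of falling signal, 204 of 204, 188 of 203, 102 of 203 and 28 of 203 members were strong in both. In the weakest group, 91 were strong in replicate 3 and 131 in replicate 4. Grouping by pooled signal builds part of that fall in, but most members of the weakest group were not strong in both replicates.

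Although ranks differed, the summits themselves lay close together. The replicate summits of a member were a median of 29 bp apart, with quartiles of 9 and 60 bp (812 members with a peak in both lists). They lay on the same side of the start in 733 members (90.3%, 88.0 to 92.1%), with 556 upstream in both and 177 downstream or at the start in both. Where members lay close together they could share a replicate peak, as 46 members did in replicate 3 and 46 in replicate 4.

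**Figure D4:**
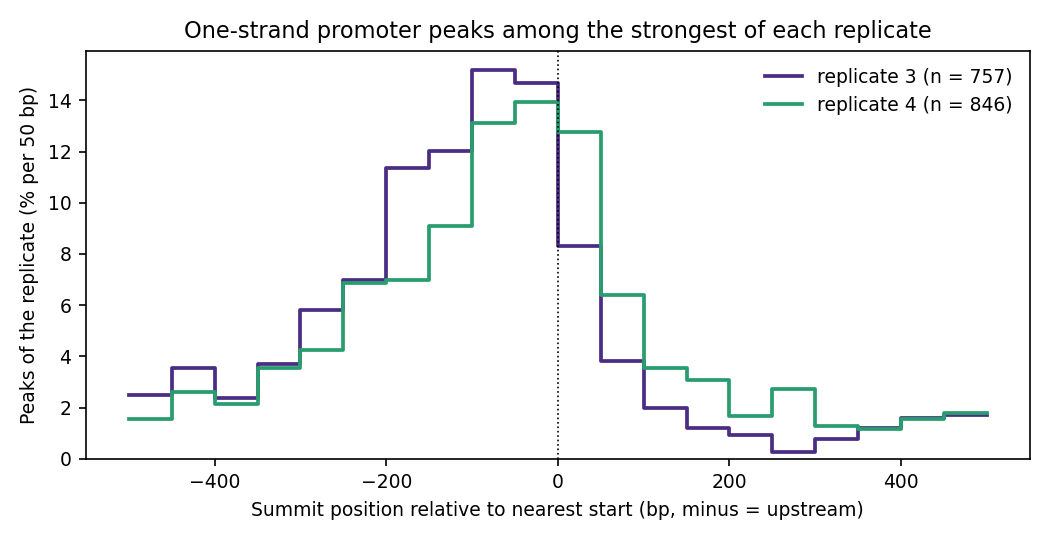
Summit position relative to the nearest start, in bp with negative values upstream, for the one-strand promoter peaks among the 1985 strongest of each replicate, as a percentage of each replicate's peaks per 50 bp. The medians are -93 bp for the 757 peaks of replicate 3 and -51.5 bp for the 846 peaks of replicate 4.

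Genes were counted as eligible when any pooled one-strand summit lay within 500 bp of a start, and as bound when a member did. Over all genes, 805 of 5804 eligible genes were bound (13.9%), and every group below is read beside that background. Protein-coding genes were bound in 14.7% of cases (715 of 4869) and non-coding RNA genes in 9.40% (70 of 745). Small nuclear RNA genes were bound in 6 of 15 cases (40.0%, 19.8 to 64.3%). A total of 52 genes had more than 1 member, and RapGAP1, a GTPase activator of Rap1, had the most with 4. The dnc gene, which encodes a cAMP phosphodiesterase, had 3, with signals of 295, 127 and 75.5, each between 277 and 339 bp upstream of a start.

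Genes of cytosolic ribosomal proteins were bound in 22 of 53 eligible cases (41.5%, 29.3 to 54.9%), with a median signal of 105 against 93.8 over all bound genes. RpL23A had an optimal signal of 245, ranked 90 in replicate 3 and 167 in replicate 4. RpL30 had 166 and ranked 261 and 332, and RpL17 had 164 and ranked 268 and 388. RpL17 shared its peak with tRNA:Phe-GAA-1-2 and a snoRNA gene. The 22 signals ran from 68.1 (RpL10Ab) to 245, the median summit lay 24.5 bp upstream of the start, and 16 were upstream. DRE forms were in 6 of the 22, CAACACTG and Motif 7 in 2 each and CACTGTG in 1. Over all 813 members, DRE forms were in 57, CAACACTG in 31, Motif 7 in 48 and CACTGTG in 67, and no difference from these was tested. Of the 22 peaks, 17 were strong in replicate 3 and 21 in replicate 4.

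Other groups of the translation machinery had shares nearer to the background, some with intervals that overlapped that of the cytosolic ribosomal proteins. Translation initiation and elongation factors were bound in 8 of 30 cases (26.7%, 14.2 to 44.4%), including eIF3c (158), eEF1gamma (148) and eEF5 (120). DRE forms were in 4 of these 8 peaks, against 57 of all 813 members, which was not tested. Mitochondrial ribosomal protein genes were bound in 3 of 15 cases, at mRpL41 (523), mRpL4 (146) and mRpL13 (70.6). Aminoacyl-tRNA synthetases were bound in 0 of 9, which allows up to 33.3%. The tRNA genes were bound in 5 of 57 (8.77%), led by tRNA:Phe-GAA-1-2 (164), tRNA:Thr-AGT-1-4 (99.1) and tRNA:Gly-GCC-1-13 (89.2).

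Genes of Notch, Wnt and BMP signalling were bound in 9 of 19 eligible cases (47.4%, 27.3 to 68.3%). Strongest was sgg, the fly GSK3 kinase of Wnt signalling, with overlapping members at 216 and 126. Next were shn, a zinc finger protein of BMP signalling (95.1), and the Notch receptor gene N (94.1). N had a signal of 32.8 in replicate 3 (rank 1424) and 54.4 in replicate 4 (rank 1141). The other bound genes were nkd, E(spl)mbeta-HLH, wg, brk, Su(H) and arr, with signals from 67.4 to 92.9.

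Replicates differed in this group. The overlapping sgg members share 1 peak in each replicate, so that the group has 9 distinct peaks in each. All 9 were strong in replicate 4 and 4 in replicate 3. The Wnt ligand gene wg ranked 649 in replicate 4 and 7898 in replicate 3, and brk, a repressor of BMP targets, ranked 1007 and 6788. E(spl)mbeta-HLH, a Notch target, ranked 586 and 7333. Of the 10 members, 1 held any of the 5 elements, against 176 of all 813, which was not tested.

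Regulators of chromatin and ZAD zinc finger genes were bound in several cases, at shares with intervals that each include the 13.9% over all eligible genes. Of the Polycomb and trithorax group, 5 of 18 genes were bound (27.8%, 12.5 to 50.9%). These were ph-p (505), Trl, which encodes GAGA factor (177), esc (106), Pc (85.8) and kis (68.0). Insulator and boundary protein genes were bound in 2 of 6 cases (33.3%, 9.68 to 70.0%), at Trl, which is counted in both groups, and row (170). ZAD zinc finger genes were bound in 3 of 8 (37.5%, 13.7 to 69.4%), at Phs (164), Sry-delta (163) and hang (84.8). CG4282 itself was not among them, since its pooled summit, 11 bp upstream of its start, had a signal of 36.6, ranked 7695 and lay near starts on both strands.

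Transcription and RNA processing genes were bound at shares near the background or below it. RNA polymerase and general transcription factor genes were bound in 3 of 23 cases, at TfIIA-S (200), Polr2F (179) and Taf4 (130). Mediator was bound in 1 of 11, at MED19 (72.4), and splicing factors in 1 of 12, at B52 (74.8). Nucleoporins were bound in 0 of 8, which allows up to 37.5%, and the RNA exosome in 0 of 3, with a Wilson upper limit of 56.1%.

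Among membrane traffic genes, secretory coat and Sec genes were bound in 4 of 14 (28.6%, 11.7 to 54.6%), including deltaCOP (168), Sec8 (83.4) and Sar1 (73.7). Rab GTPase genes were bound in 2 of 14, at Rab5 (175) and Rab39 (123). Both Rab summits lay downstream of the start, by 365 and 456 bp, and both peaks held CACTGTG, which was in 67 of all 813 members. Autophagy genes were bound in 2 of 8, at Atg8a (94.7) and Atg1 (72.9), and vacuolar ATPase genes in 2 of 14, at Vha16-1 (82.1) and VhaM9.7-b (72.1). Peroxins were bound in 0 of 4.

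Energy and cell division genes were bound in small numbers. Oxidative phosphorylation genes were bound in 2 of 27 (7.41%), at blw (118) and ND-B17 (81.4), and mitochondrial import genes in 0 of 5. DNA replication genes were bound in 3 of 14, at Orc1 (81.2), Psf2 (73.7) and PolA1 (69.4), and cell cycle genes in 2 of 19, at polo (117) and CycA (77.4). Chaperone genes were bound in 2 of 15, at Hsp83 (158) and Hsp27 (108). Segmentation and Hox genes were bound in 2 of 18, at bcd (89.1) and wg (82.9).

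No bound gene was found in some large groups. Cuticle protein genes were bound in 0 of 31 eligible cases, which allows a share of up to 9.68%, and chemoreceptor genes in 0 of 21, which allows up to 14.3%. Proteasome genes were bound in 0 of 13, which allows up to 23.1%. Binding at starts with an opposite start nearby is not counted in any of these shares. It was found at 7 genes each of the proteasome and Mediator, 5 each of nucleoporins and aminoacyl-tRNA synthetases, and 3 each of the RNA exosome and peroxins. It was also found at 10 oxidative phosphorylation, 14 mitochondrial and 24 cytosolic ribosomal protein genes. It was found at 1 cuticle protein gene, and at 0 genes of the chemoreceptor, the Notch, Wnt and BMP signalling, and the segmentation and Hox groups. No share over all genes was taken at such starts, so these counts have no background and cannot be compared between groups. Long non-coding RNA genes were bound in 53 of 529 cases (Wilson interval 7.74 to 12.9%), led by lncRNA:CR44463 (523), which shares its peak with mRpL41, lncRNA:CR44619 (424) and lncRNA:CR31840 (353). Of their 54 peaks, 27 were upstream of the nearest start, against 593 of the 813 members.

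**Figure D5:**
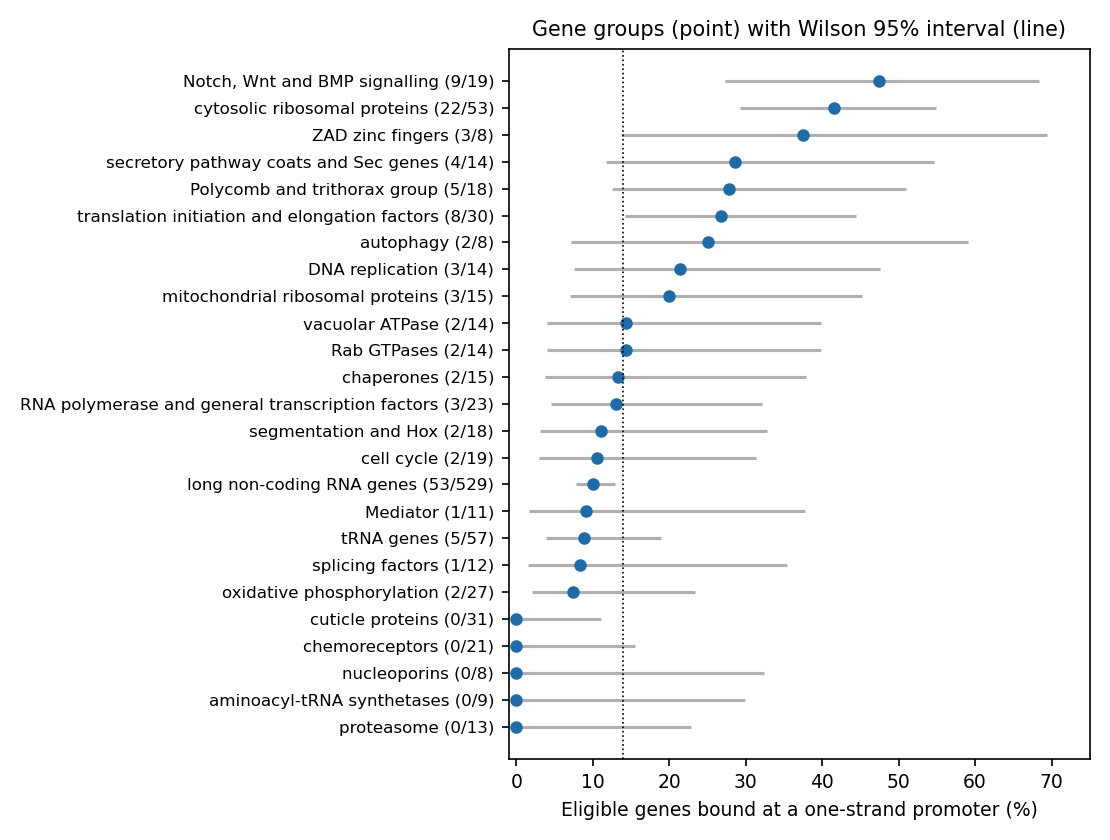
Percentage of eligible genes bound at a one-strand promoter for each gene group with at least 8 eligible genes, as a point with its Wilson 95% interval as a line and bound over eligible genes in brackets. The dotted line marks 13.9%, the share over all eligible genes; Notch, Wnt and BMP signalling (47.4%) and cytosolic ribosomal proteins (41.5%) lie farthest above it.

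The members farthest from a start were at CG31523 (498 bp, signal 132), CG17896 (495 bp, signal 288) and CG31807 (487 bp, signal 105). Just beyond the limit were optimal peaks near tacc (501 bp, 89.7) and pAbp (507 bp, 224). The members with the nearest opposite start were MED19 and spidey, each with one at 501 bp, and Dp with one at 502 bp, with signals of 72.4, 126 and 111. The peaks with an opposite start just inside the limit were at galectin (498 bp, 102), mask (496 bp, 83.3) and CG42613 (488 bp, 83.9).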

How the data were processed

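Peaks were deposited as lists in which each peak has a signal, the authors' enrichment value. Per the file headers and listing, replicates 3 and 4 each had a relaxed list (peaks with background) made against 1 control file, and the pooled replicates gave another relaxed list and the optimal list. The sources used here name no aligner, peak caller or cutoff of the irreproducible discovery rate. Per the labels' protocols, chromatin was sonicated and fragments of 200 to 800 bp were kept. All coordinates are dm6 and 1-based. The 4 lists in dm3 were not used.

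Summits were annotated with Ensembl release 115 gene models (BDGP 6.54, same arms as dm6), with transposable elements left out. Sequences came from the RefSeq dm6 genome. The nearest start gave the side, and the rest used Python 3.11.15, SciPy 1.17.1, statsmodels 0.14.6 and pandas 2.3.3. Shares were compared by Fisher's exact tests, adjusted by Benjamini-Hochberg over 3 tests with a threshold of 0.05. Shares have Wilson and differences Newcombe 95% intervals. An upper limit for a count of 0 is 3 counts over the total, except for the RNA exosome, where the total is too small for that rule. Intervals and limits cover only the counting error of peaks or genes, and depth is unknown. The code was tested on simulated data. The labels call the replicates biological and say no more of how they were collected.

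Members, the 29 gene lists and the 20 motifs were chosen with earlier results of these data known. Genes are named as those at the 20 strongest members, up to 3 bound genes of each list by signal, those at the limits of the rule and CG4282; the further bound genes of the signalling and chromatin groups, RapGAP1, dnc and RpL10Ab were added after their values were seen. Alternatives changed the start window, the strand rule, the annotation, the position of a peak, the list, the overlap and the replicate used.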

Additional observations from a re-analysis of the deposited data

How the results depend on the processing

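The higher upstream share of members than of weaker peaks was called under every alternative tried, with differences from 25.0 to 39.9 percentage points. With each replicate left out in turn it was 25.0 to 32.9 points, the number of members 757 to 846 and the number of bound genes 746 to 832. The difference in upstream share from peaks with starts on both strands ran from -7.71 without replicate 3, where it was called, to 0.49 without replicate 4, where the sign was reversed, and the cause was not tested. The stricter list, optimal peaks at or above the median signal, left 403 members and 402 bound genes by construction. In it the difference in the share strong in both replicates was -0.466 percentage points and not called, with both shares (96.5% and 97.0%) near the ceiling by construction, and that difference has no value with a replicate left out, since it needs both. Of 24 motif shares under other windows or the stricter list, 21 moved beyond their interval. A share cannot rise in a narrower window or fall in a wider one, so the direction of the moves with the window was set by construction. CACTGTG was in 10.9% and DRE in 3.23% of members of the stricter list. No paired analysis was possible because there was only 1 group. The unknown read depth limits what an absent peak can show.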
